A study of Mus musculus with 12 samples.

Results

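Chemokines are small secreted proteins that direct the movement of leukocytes through G protein coupled receptors. In skeletal muscle, the CC chemokines Ccl2 and Ccl7 act on the receptor Ccr2 and are known for recruiting inflammatory monocytes, Ccl6 and Ccl9 are CC chemokines of myeloid cells, Cxcl9 is induced by interferon-gamma and attracts T cells through Cxcr3, and Cxcl12, Cxcl14 and the membrane-bound Cx3cl1 are made by resting tissues. The genes described here are 10 named chemokines, Ccl2, Ccl6, Ccl7, Ccl8, Ccl9, Cxcl1, Cxcl9, Cxcl12, Cxcl14 and Cx3cl1, taken by symbol from a table of 12752 genes. Of these, 8 were present in the table and all 8 were tested, and Ccl8 and Cxcl1 are not analysed here.

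The tissue was the whole tibialis anterior, a shin muscle, taken from male C57BL/6 mice whose muscles were injected at 8 weeks of age. One leg received AAV:MCS, a viral vector without a transgene, and the opposite leg AAV:Dux, each together with AAV:TET, so that AAV:TET was present in every group. Dux is the mouse homologue of DUX4, a transcription factor whose expression in muscle causes facioscapulohumeral dystrophy. After 7 days the mice stayed on standard chow or received chow with doxycycline (600 mg/kg), which switches the Dux transgene on, for 2 or 7 further days, and the labels do not state which applies. Each group had 3 libraries. Those of the AAV:MCS leg are called EV without doxycycline and EV_DOX with it, and those of the AAV:Dux leg DUX and DUX_DOX in the same way. The sources used here do not give the vector dose of these libraries, the promoter of the Dux vector or any pooling of animals. Levels are CPM, a gene's counts scaled to the size of its library. Differences are fitted with edgeR and given on the log2 scale with standard errors (SE), and p-values were adjusted by Benjamini-Hochberg across 12751 genes.

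The libraries held 11880593 to 13811999 counts. The 12 muscle fibre markers were all measured and summed to 121400 to 163200 CPM. AW822073 and Tmem92 are genes of the early embryo that Dux is known to turn on. They had 37 to 60 and 1123 to 2339 counts in DUX_DOX libraries, against 0 to 2 and 0 to 4 in the others. Both were in the analysis only through DUX_DOX, so they describe the switch and do not test it. Counts for Dux are not analysed here. Tendon markers stood apart in EV 3 (1062 CPM summed) and EV_DOX 1 (984.5 CPM), against 106.8 to 326.1 CPM in the remaining libraries. Nothing in the labels says that a group's libraries come from separate animals, so p-values measure the spread between libraries, which may be technical. In bulk muscle, fewer cells of a type and less RNA per cell cannot be told apart.

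In induced Dux muscle 4 of the 8 chemokines passed the test as higher than in EV_DOX. These 4 lie in 2 pairs of neighbouring genes on chromosome 11. Ccl2 and Ccl7 went from near absence to clear expression, Ccl6 and Ccl9 rose about as much as each other from a measurable base, and Cxcl9, Cxcl12, Cxcl14 and Cx3cl1 did not pass the test against EV_DOX. The 4 called genes make up 50% of the members, all of them higher, where 25.3% of all genes tested were called in this comparison, 14.9% higher and 10.3% lower. The median log2 fold change of the 8 members was 1.26, beside -0.01 for all genes tested. Ccl2 and Ccl7 had mean counts under 10 over the 9 libraries without induced Dux. They were thus in the analysis only through DUX_DOX, and both the share called and the median include them.

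**Figure D1:**
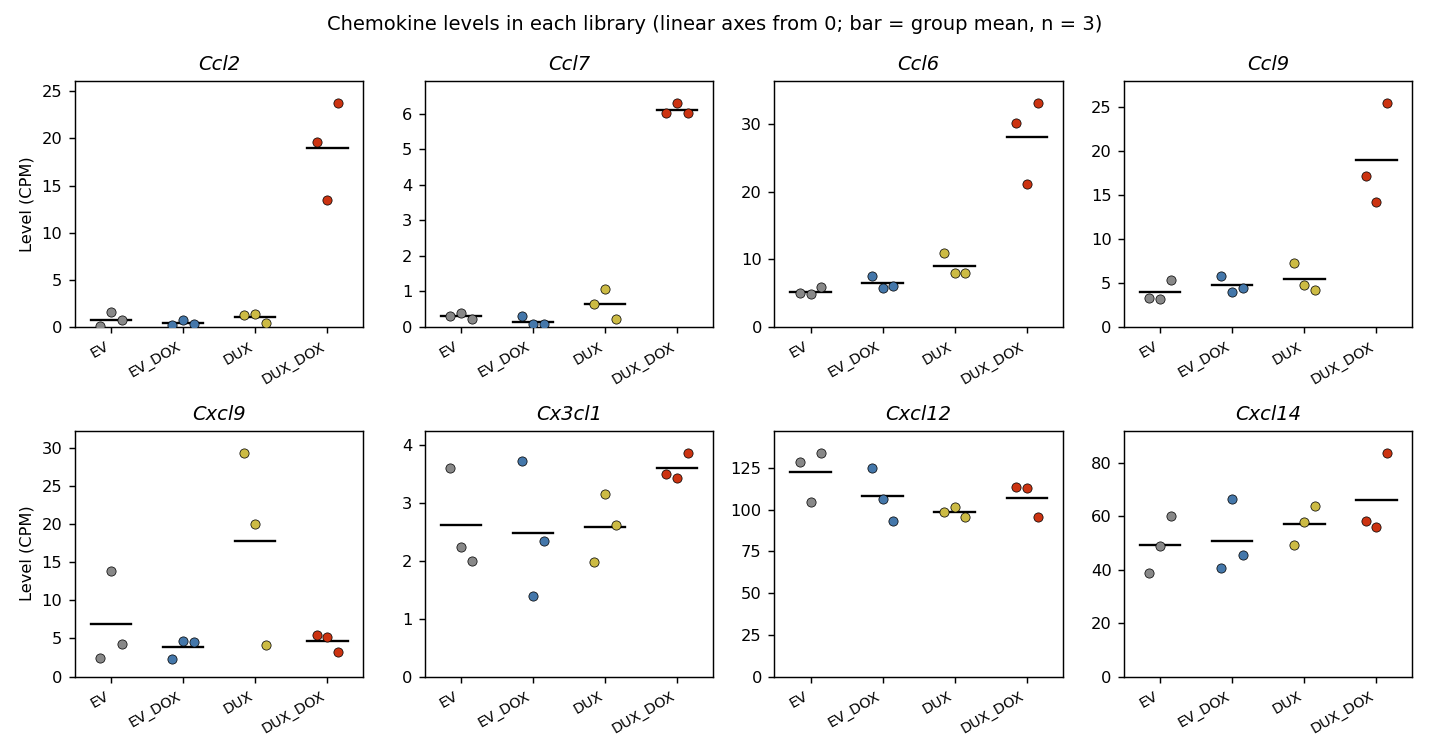
Level of each chemokine in every library, in CPM on linear axes that start at 0, with 1 point per library and a bar at the mean of the 3 libraries of a group. The DUX_DOX points of Ccl2, Ccl7, Ccl6 and Ccl9 lie above the other 9 libraries, whereas Cxcl9 is highest in DUX 1, DUX 2 and EV 2.

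Ccl6 (ENSMUSG00000018927, chromosome 11, 83587882 to 83593087, minus strand, GRCm38) and Ccl9 (ENSMUSG00000019122, chromosome 11, 83572919 to 83578636, minus strand) lie 9245 bases apart. The 250 bases before each start site are shown because these genes had the closest profiles of any pair of members. They are RefSeq sequences of GRCm38.p6, at chr11:83593088-83593337 for Ccl6 and chr11:83578637-83578886 for Ccl9, read 5′ to 3′ on the minus strand, with capitals on the stretch that a local alignment of the 2 windows found.
Ccl6: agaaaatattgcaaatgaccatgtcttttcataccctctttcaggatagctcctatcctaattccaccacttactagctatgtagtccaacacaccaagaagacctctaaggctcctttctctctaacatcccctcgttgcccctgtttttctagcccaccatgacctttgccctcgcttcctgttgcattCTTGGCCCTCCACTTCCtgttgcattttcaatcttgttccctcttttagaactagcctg
Ccl9: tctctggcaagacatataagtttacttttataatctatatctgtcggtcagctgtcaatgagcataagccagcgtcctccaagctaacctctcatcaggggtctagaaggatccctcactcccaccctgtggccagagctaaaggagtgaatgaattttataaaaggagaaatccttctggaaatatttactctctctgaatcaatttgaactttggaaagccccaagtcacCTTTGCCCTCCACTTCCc
The aligned stretch is 17 bases long with 16 identical, from -59 to -43 before the Ccl6 start and from -18 to -2 before the Ccl9 start. It ends in ACTTCC, the reverse complement of the ETS word GGAAGT (factors such as PU.1 of myeloid cells read it), which 19.7% of 32851 RefSeq promoter windows of this length hold on either strand. Of the 8 members 6 had an entry in the promoter table, and Ccl2 and Ccl7 had none. The ETS word also occurred in the Cxcl9 window. An AP-1-like word with any base in the middle, TGANTCA (6.75% of all windows), and the NF-kB consensus (7.25%) occurred only in that of Ccl9 among the 6. The match to the AP-1-like word was TGAATCA. The STAT word TTCNNNGAA (7.02%) occurred only in the window of Cxcl14, and all words were searched on both strands. A DUX word was searched in the same way and occurred in 0.0304% of all windows and in none of the 6. Windows hold this word so rarely that its absence says little of these genes. The words were chosen after the sequences and values were seen, and a match is a match of letters, not a measured site.

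Ccl2 (ENSMUSG00000035385, chromosome 11, 82035571 to 82037453, plus strand), the main monocyte attractant of injured tissue, had 258, 189 and 307 counts in DUX_DOX 1, 2 and 3. It had 2, 9 and 4 counts in EV_DOX, 16, 17 and 6 in DUX, and 1, 19 and 9 in EV. All 3 DUX_DOX libraries thus stood above all 9 others, the highest of which was EV 2 at 1.52 CPM against 13.5 CPM in the lowest DUX_DOX library. The level was 18.97 CPM (SD 5.14, n = 3) in DUX_DOX and 0.385 CPM (SD 0.283) in EV_DOX, a difference of 5.60 on the log2 scale (SE 0.51, adjusted p = 2.51e-06). Against DUX it was 4.23 (SE 0.44, adjusted p = 9.39e-06), with the same DUX_DOX libraries in both comparisons. Of all genes 21.4% had DUX_DOX wholly above EV_DOX and 17.3% wholly below, and 26% and 22.6% against DUX. Because EV_DOX held only 15 counts in all, the size of the rise depended on single libraries, and it was 6.30 without EV_DOX 2 (adjusted p = 1.97e-05).

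Ccl7 (ENSMUSG00000035373, chromosome 11, 82045712 to 82047525, plus strand), a second Ccr2 ligand, starts 8258 bases after the end of Ccl2. It had 79, 88 and 78 counts in DUX_DOX, 4, 1 and 1 in EV_DOX, 8, 14 and 3 in DUX, and 4, 5 and 3 in EV. Its DUX_DOX libraries were close to each other at 6.02, 6.29 and 6.03 CPM, a coefficient of variation of 2.55%, whereas that of Ccl2 was 27.1%. Ccl7 was 5.24 higher on the log2 scale in DUX_DOX than in EV_DOX (SE 0.43, adjusted p = 1.03e-06) and 3.23 higher than in DUX (SE 0.34, adjusted p = 1.10e-05). Without EV_DOX 1, which held 4 of the 6 counts, the first value was 6.13 (adjusted p = 2.11e-06). Without DUX 2 the second was 3.82 (adjusted p = 2.03e-05).

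Ccl11 (eotaxin, the eosinophil attractant), which is no member, is the next gene on this stretch, 10297 bases beyond Ccl7. It had 14.6, 17.4 and 24.2 CPM in DUX_DOX and 18.83, 24.01 and 13.77 CPM in EV_DOX, a log2 fold change of -0.01 (95% interval -0.51 to 0.49, adjusted p = 0.975). The groups overlapped, and the interval lies below those of its neighbours, from 4.51 to 6.69 for Ccl2 and from 4.31 to 6.17 for Ccl7. Ccl12 and Ccl8, which follow on the same stretch, are not analysed here.

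**Figure D2:**
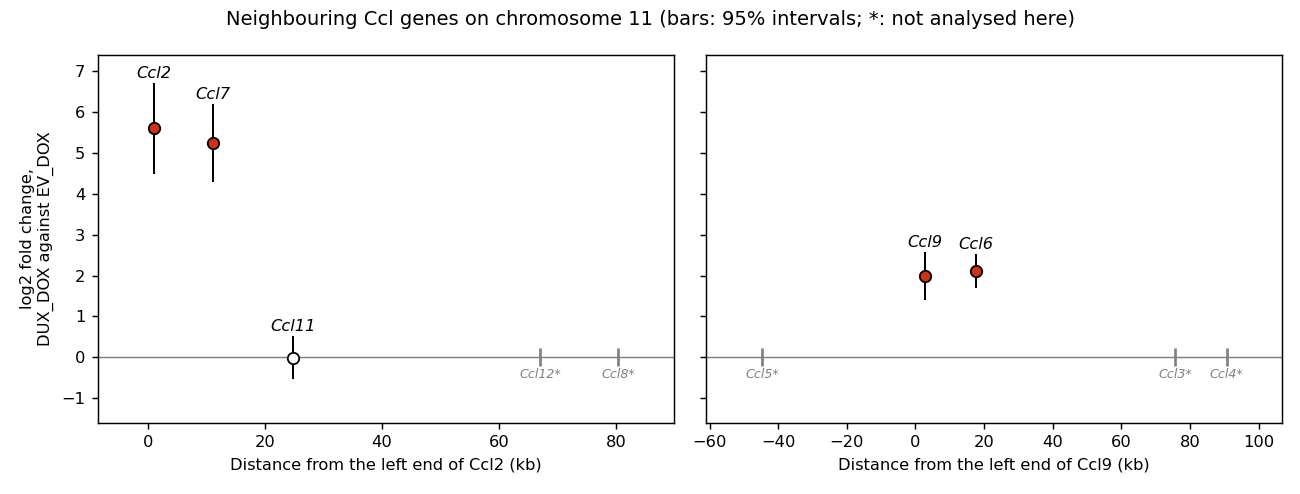
Log2 fold change of DUX_DOX against EV_DOX for neighbouring Ccl genes, against the distance in kb from the left end of Ccl2 (left) or Ccl9 (right), with 95% intervals, filled points for adjusted p under 0.05 and asterisks for genes not analysed here. Ccl2 and Ccl7 lie at 5.60 and 5.24 and Ccl11 beside them at -0.01, and Ccl9 and Ccl6 lie at 2.00 and 2.11.

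Ccl6, a chemokine of macrophages and other myeloid cells, had 30.2, 21.2 and 33.1 CPM in DUX_DOX. EV_DOX held 7.52, 5.81 and 6.10 CPM, DUX 10.9, 7.93 and 7.99 CPM, and EV 4.94, 4.81 and 5.91 CPM. The lowest DUX_DOX library was above every other library, and the 3 DUX libraries were above the 3 EV libraries. The log2 fold change was 2.11 against EV_DOX (SE 0.18, adjusted p = 1.45e-06) and 1.65 against DUX (SE 0.18, adjusted p = 1.25e-05). DUX against EV gave 0.77 (SE 0.20, adjusted p = 0.192), which did not pass, in a comparison where no gene of 12751 passed in edgeR and 11.3% of genes had all DUX libraries above all EV libraries.

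Ccl9, which signals through Ccr1 on myeloid cells, had 17.2, 14.2 and 25.4 CPM in DUX_DOX. It had 5.77, 3.95 and 4.46 CPM in EV_DOX, 7.27, 4.77 and 4.18 CPM in DUX and 3.29, 3.21 and 5.37 CPM in EV. As with Ccl6, the DUX_DOX libraries lay wholly above the other 9, with DUX_DOX 2 the lowest and DUX_DOX 3 the highest of the group for both genes. The log2 fold change was 2.00 against EV_DOX (SE 0.26, adjusted p = 7.96e-05) and 1.81 against DUX (SE 0.26, adjusted p = 0.000159). The profiles of Ccl6 and Ccl9 over the 12 libraries, each centred on its mean, differed by a root mean square of 0.20 on the log2 scale, the smallest value among the 28 pairs of members.

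Cxcl9 (ENSMUSG00000029417, chromosome 5, 92321347 to 92328079) did not follow the Dux switch. It had 29.3 and 20.01 CPM in DUX 1 and DUX 2 and 13.9 CPM in EV 2, and between 2.26 and 5.49 CPM in the other 9 libraries, DUX 3 (4.18 CPM) and all of DUX_DOX among them. Against EV_DOX the log2 fold change of DUX_DOX was 0.28 (95% interval -1.20 to 1.76, adjusted p = 0.804). Against DUX it was -1.95 (SE 0.61, adjusted p = 0.0282) although the groups overlapped, and this call was lost in 6 of the 20 alternatives, among them without DUX 1 (-1.39, adjusted p = 0.144), without DUX 2 (-1.85, adjusted p = 0.0740), without each DUX_DOX library (0.0551 to 0.106) and in limma-voom (0.116).

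The 3 libraries high in Cxcl9 were also the 3 highest in the summed level of 19 interferon-gamma response genes. That sum was 531.6 CPM in DUX 1, 543.6 CPM in DUX 2 and 435.9 CPM in EV 2, and 166.4 to 210.5 CPM in the other 9. Cxcl10, the neighbouring gene for another Cxcr3 ligand, was high in the same libraries (3.95, 4.39 and 3.13 CPM) and also in DUX_DOX (3.73, 5.43 and 3.63 CPM), where the interferon sum was 183.1 to 205.5 CPM. It was 0.157 to 0.783 CPM in the remaining 6 libraries. Cxcl10 rose by 3.12 in DUX_DOX against EV_DOX (SE 0.86, adjusted p = 0.0163) and had a value of 0.56 against DUX (adjusted p = 0.549). The Cxcl10 call was lost without EV_DOX 2 (adjusted p = 0.0563) or DUX_DOX 2 (0.0531). Of the 19 interferon genes 1 was higher and 0 lower against EV_DOX (Ciita, a regulator of antigen presentation genes, 0.95, adjusted p = 0.0395, lost in 8 of 20 alternatives), and 0 were higher and 8 lower against DUX. Among all genes 14.9% were higher and 10.3% lower against EV_DOX, and 16.5% and 13.1% against DUX. The part of the interferon genes in the Cxcl9 values was not tested.

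**Figure D3:**
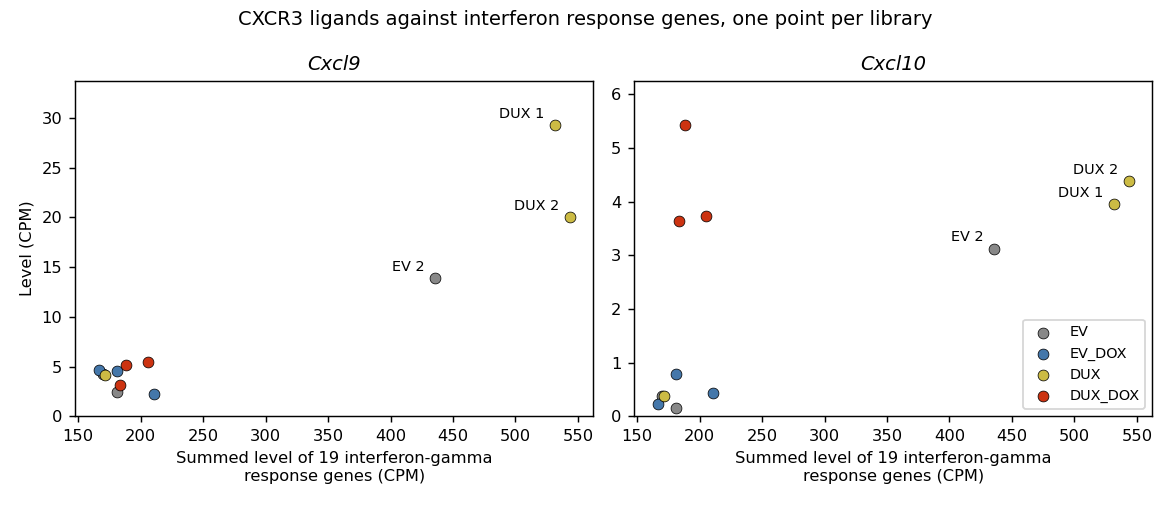
Level of Cxcl9 (left) and Cxcl10 (right) in CPM against the summed CPM of 19 interferon-gamma response genes, with 1 point per library coloured by group. DUX 1, DUX 2 and EV 2 lie at 435.9 to 543.6 CPM on the horizontal axis and are high for both chemokines, and the DUX_DOX libraries lie at 183.1 to 205.5 CPM with Cxcl10 at 3.63 to 5.43 CPM and Cxcl9 at 3.17 to 5.49 CPM.

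Of the chemokines of resting tissue, Cxcl12 and Cxcl14 had coefficients of variation of 13.9% and 19.3% over the 9 libraries without induced Dux, the smallest of the 8 members, and Cx3cl1 had 30.8%. Cxcl12 (ENSMUSG00000061353, chromosome 6, 117168535 to 117181367), the Cxcr4 ligand that retains progenitor and immune cells, ranged from 93.3 to 134 CPM over the 9 libraries without induced Dux and from 95.7 to 113 CPM in DUX_DOX. The log2 fold change against EV_DOX was -0.01 (95% interval -0.26 to 0.24, adjusted p = 0.952), and against DUX it was 0.12 (95% interval -0.13 to 0.37). In DUX it was 95.7 to 101.9 CPM, wholly below EV at 104.8 to 134 CPM, a log2 fold change of -0.31 (adjusted p = 0.246), where 11.6% of all genes had DUX wholly below EV.

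Cxcl14 (ENSMUSG00000021508, chromosome 13, 56288643 to 56296551), a chemokine of epithelia and stromal cells, had 57.97, 56.1 and 83.55 CPM in DUX_DOX and 40.4, 66.5 and 45.5 CPM in EV_DOX. The log2 fold change was 0.37 (95% interval -0.05 to 0.80, adjusted p = 0.188), and 0.585 without EV_DOX 2 (adjusted p = 0.0451). Cx3cl1 (ENSMUSG00000031778, chromosome 8, 94772009 to 94782427), fractalkine, had 3.504, 3.43 and 3.87 CPM in DUX_DOX and 3.72, 1.39 and 2.35 CPM in EV_DOX. Its log2 fold change was 0.52 (95% interval -0.13 to 1.18, adjusted p = 0.230), and 0.94 without EV_DOX 1 (adjusted p = 0.0379), one of the tendon-rich libraries and the highest of its group for this gene. The DUX_DOX libraries were wholly above those of DUX (1.98 to 3.16 CPM) for Cx3cl1, as for 26% of all genes. The log2 fold change was 0.48 (adjusted p = 0.260).

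Per kilobase of exonic length, Cxcl14 was the most abundant member in EV_DOX at 27.8 CPM per kb (SD 7.54), followed by Cxcl12 (13.2, SD 1.95), Ccl6 (3.61, SD 0.51), Ccl9 (1.55, SD 0.31), Cxcl9 (1.27, SD 0.45), Cx3cl1 (0.633, SD 0.298), Ccl2 (0.339, SD 0.248) and Ccl7 (0.186, SD 0.154). From Ccl9 down, each gene overlapped with the next in this order over the libraries. In DUX_DOX the order was Cxcl14 (36.05 CPM per kb, SD 8.40), Ccl2 (16.7, SD 4.52), Ccl6 (15.7, SD 3.46), Cxcl12 (13.1, SD 1.23), Ccl7 (7.63, SD 0.1945), Ccl9 (6.22, SD 1.91), Cxcl9 (1.53, SD 0.415) and Cx3cl1 (0.916, SD 0.0589). Ccl2, Ccl6 and Cxcl12 overlapped there, and so did Ccl7 and Ccl9. The lengths are unions of annotated exons, so they bear on the order but not on any comparison between groups.

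**Figure D4:**
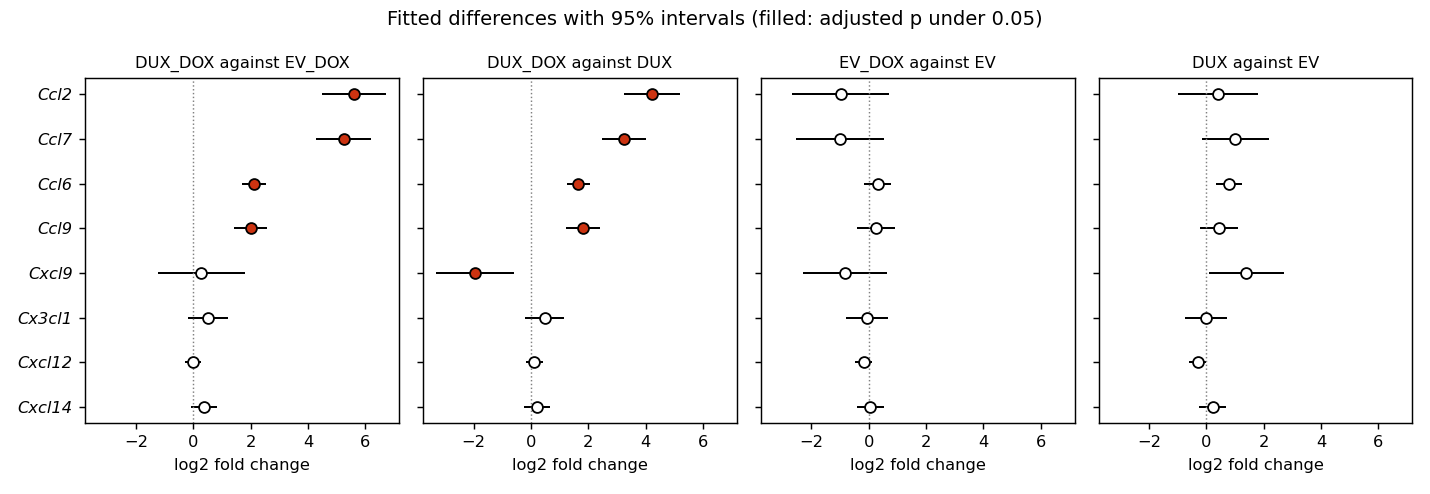
Log2 fold change of each chemokine (points) with its 95% interval (lines) in the 4 comparisons between groups, with filled points for adjusted p under 0.05. Ccl2, Ccl7, Ccl6 and Ccl9 are filled in both comparisons with DUX_DOX, Cxcl9 is filled only in DUX_DOX against DUX at -1.95, and no point is filled for chow alone or for the uninduced vector.

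Neither doxycycline chow nor the uninduced vector alone gave a call among the members. For EV_DOX against EV the log2 fold changes ran from -1.0 (Ccl7) to 0.31 (Ccl6), 0 of the 8 had an unadjusted p under 0.05, and 0.0392% of all genes were called. EV_DOX and EV overlapped for each of the 8, where 5.69% of all genes had EV_DOX wholly above EV and 6.45% wholly below. In DUX against EV they ran from -0.31 (Cxcl12) to 1.38 (Cxcl9), 3 of the 8 had an unadjusted p under 0.05 in edgeR, and 0 of the 8 were called by edgeR, limma-voom or DESeq2. The percentage of all genes called there was 0 in edgeR, with 2011 genes at an unadjusted p under 0.05 and 153 called in DESeq2. The interaction asked whether the vector effect differed between the chows. It passed for Ccl2 (5.20, SE 0.91, adjusted p = 0.00271), Ccl7 (4.23, SE 0.81, adjusted p = 0.00467), Ccl6 (1.34, SE 0.27, adjusted p = 0.00635) and Ccl9 (1.55, SE 0.39, adjusted p = 0.0222), or 4 of 8 members where 10.4% of all genes passed and 6.97% were higher. The Ccl9 interaction was lost without EV 3 (adjusted p = 0.0818), EV_DOX 2 (0.0544), DUX 2 (0.0569) or DUX 3 (0.0582), and that of Ccl2 was 4.25 without EV 2 (adjusted p = 0.0224) and 5.90 without EV_DOX 2 (0.00336). That of Ccl7 was 5.12 without EV_DOX 1 (adjusted p = 0.00249) and 4.82 without DUX 2 (0.00201). DUX_DOX against DUX called 5 members, 4 higher and 1 lower, where 29.6% of all genes were called, 16.5% higher and 13.1% lower. The counts for this comparison and for the interaction include Ccl2 and Ccl7, which were in the analysis only through DUX_DOX.

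Ccr2 and Ccr1, receptors of called ligands, were higher in DUX_DOX as well, and so was Cx3cr1, whose ligand Cx3cl1 was not called. Ccr2, the receptor of Ccl2 and Ccl7, had 27.4, 20.3 and 26.9 CPM in DUX_DOX and 11.6, 5.73 and 7.04 CPM in EV_DOX, a rise of 1.61 (SE 0.24, adjusted p = 0.000270). Ccr1, a receptor of Ccl6, Ccl7 and Ccl9, had 46, 21 and 54 counts against 18, 8 and 3, a rise of 2.04 (SE 0.50, adjusted p = 0.00865), or 2.80 without EV_DOX 1 (adjusted p = 0.00295). Its mean count was under 10 over the libraries without induced Dux, so Ccr1 was in the analysis only through DUX_DOX. Cx3cr1 rose by 2.06 (SE 0.44, adjusted p = 0.00391), or by 2.69 without EV_DOX 1 (adjusted p = 0.00150), the library without which its ligand Cx3cl1 passed the test. For the Cxcl12 receptors, Cxcr4 had 4.10 to 4.15 CPM in DUX_DOX (log2 fold change -0.22, adjusted p = 0.562), and the value for the scavenger Ackr3 was 0.06 (adjusted p = 0.778).

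Of the 10 receptor genes measured, out of 25 symbols, 5 were higher and 1 lower against EV_DOX, with a median of 0.74. Among all genes 14.9% were higher and 10.3% lower. The receptor count and median include Ccr1, which was in the analysis only through DUX_DOX. The receptors called included Cmklr1, a receptor of chemerin (0.77, adjusted p = 0.0432, lost in 9 of 20 alternatives), and Ccrl2, a non-signalling receptor (-0.39, adjusted p = 0.0254, lost in 5). The scavengers Ackr1 (0.71, adjusted p = 0.118, called in 1 alternative) and Ackr2 (0.40, adjusted p = 0.488) did not pass. Cxcr3 is not analysed here.

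**Figure D5:**
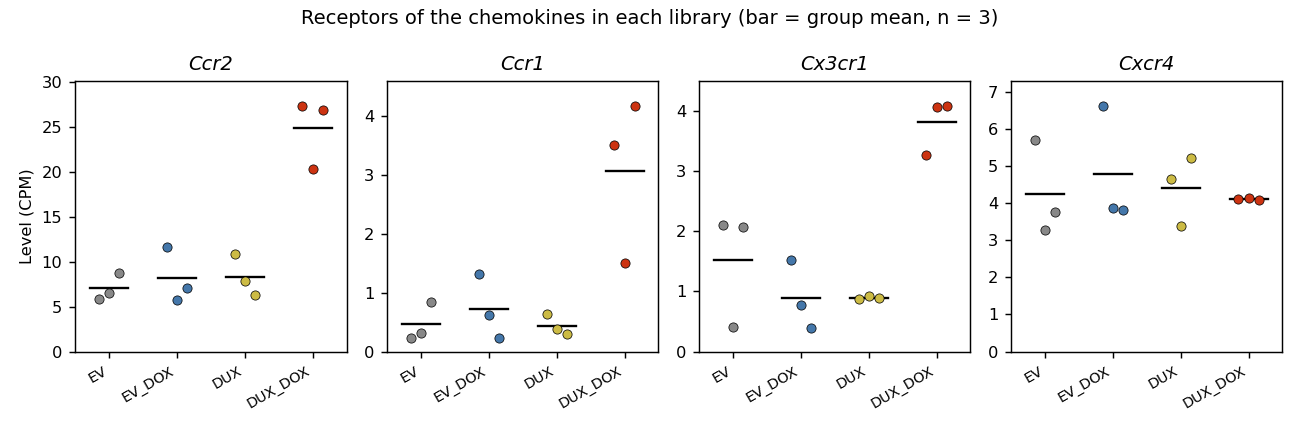
Level of 4 receptor genes in every library, in CPM on linear axes from 0, with a bar at the mean of the 3 libraries. For Ccr2, Cx3cr1 and Ccr1 the DUX_DOX points lie above those of EV_DOX and DUX, and for Cxcr4 they lie within the range of the other groups, at 4.10 to 4.15 CPM.

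Macrophage and monocyte markers moved with these chemokines. Of 23 markers measured, out of 24, 19 were higher and 0 lower in DUX_DOX against EV_DOX, with a median of 1.21. The 23 include Trem2, which was in the analysis only through DUX_DOX. The summed level of the markers was 354.1 to 520.9 CPM in DUX_DOX, 139.1 to 198.7 CPM in EV_DOX, 212.1 to 233.4 CPM in DUX and 149.4 to 231.4 CPM in EV. Relative to that sum, Ccl2 was 3.82% to 5.38% in DUX_DOX and 0.0738% to 0.351% in EV_DOX. Ccl7 was 1.16% to 1.78% and 0.0390% to 0.148%, Ccl6 was 5.98% to 8.25% and 2.92% to 4.39%, and Ccl9 was 3.999% to 4.88% and 1.99% to 3.21%. For all 4 genes this share was higher in every DUX_DOX library than in any EV_DOX library. The share depends on the markers summed, of which Lyz2 was the largest (56.2 CPM in EV_DOX, 126.8 CPM in DUX_DOX). Single markers had log2 fold changes from 0.19 to 2.78, beside 2.11 for Ccl6 and 2.00 for Ccl9. Relative to Cd68 (4.54 CPM in EV_DOX, 31.3 CPM in DUX_DOX), Ccl6 and Ccl9 rose less. The part of macrophage content in the chemokine values was not tested. Of the markers of other blood cells, 1 of 10 neutrophil genes was measured (Csf3r, 1.12, adjusted p = 0.0213), 1 of 6 B cell genes (Ighm, the heavy chain of immunoglobulin M, -0.96, adjusted p = 0.00299) and 0 of 12 genes of T or NK cells. The rest are not analysed here. Muscle fibre markers were lower in 4 of 12 and higher in 0, endothelial markers higher in 1 and lower in 2 of 14, fibro-adipogenic markers higher in 3 of 15 and lower in 0, and satellite cell markers higher in 2 of 8 and lower in 0. Sdc4, 1 of these 2 satellite cell markers, is counted again among the processing genes below. Csf1r is in both the macrophage list and the cytokine list. Smooth muscle and pericyte markers were higher in 2 and lower in 1 of 10, and tendon markers were called in 0 of 8. Among all genes 14.9% were higher and 10.3% lower in this comparison.

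The nearest genes to each called member were sought by centred profiles over the 12 libraries, among 11617 genes with a mean of at least 1 CPM. Profiles were not scaled, so genes with a DUX_DOX rise of similar size come out near. Ccl6 and Ccl9 shared Cotl1 among their nearest genes, and Ccl2 and Ccl7 shared none. Nearest to Ccl6 were Cotl1, an actin-binding protein of leukocytes (root mean square difference 0.18 on the log2 scale), Ccl9 (0.20) and Dnaja4, an Hsp40 co-chaperone (0.29). Nearest to Ccl9 were Ccl6 (0.20), Ccr2 (0.23) and Cotl1 (0.26). Nearest to Ccl7 were Hspb7, a small heat shock protein of heart and muscle (0.50), Uhrf1, a factor of DNA methylation maintenance (0.51), and Cryab, the small heat shock protein alpha-B crystallin (0.51). Nearest to Ccl2 were Mt2, a metallothionein (0.68), Csrp3, the muscle LIM protein of the Z-disc (0.69), and Mustn1, a musculoskeletal nuclear protein (0.72). A match of profiles shared by these libraries says nothing of the cells that make each transcript.

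Outside the members, 8 of 31 further chemokine symbols were measured. In DUX_DOX against EV_DOX 2 were higher and 0 lower, beside 14.9% and 10.3% of all genes, with a median of 0.59. Beside Cxcl10 these included Pf4, platelet factor 4 (1.20, adjusted p = 0.0248), whose call was lost without EV_DOX 3 (adjusted p = 0.0908) or DUX_DOX 3 (0.117). Ccl22 (1.46, adjusted p = 0.105), Ccl24 (0.71, adjusted p = 0.166), Cxcl16 (0.46, adjusted p = 0.172), Ccl25 (-0.48, adjusted p = 0.0661) and Ccl27a (-0.34, adjusted p = 0.344) did not pass with all libraries, and Ccl22 and Ccl25 passed in 1 of 20 alternatives each. Ccl22 was in the analysis only through DUX_DOX, and the median includes it.

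Genes of pathways known to induce chemokines rose in part. In DUX_DOX against EV_DOX, 14.9% of all genes were higher and 10.3% lower. The NF-kB list mixes activators with inhibitors such as Nfkbia and Tnfaip3, so its count does not measure the activity of the pathway. Of 19 genes of the NF-kB pathway and its partners 8 were higher and 0 lower against EV_DOX, with a median of 0.33, among them the subunits Rel (1.06, adjusted p = 2.07e-05) and Rela (0.65, adjusted p = 0.00193), the partner Cebpd (1.04, adjusted p = 0.000977) and the atypical inhibitor Bcl3 (1.65, adjusted p = 0.00376). Of 16 inflammatory cytokines and receptors measured, out of 26 symbols, 9 were higher and 1 lower, with a median of 0.61. Tnfrsf12a, the receptor of the cytokine Tweak, led them at 3.799 (SE 0.33, adjusted p = 1.54e-06), from 8.71 to 122.0 CPM. Csf1, the growth factor of macrophages, rose by 1.00 (adjusted p = 0.000512), Osmr, the oncostatin M receptor, by 0.71 (adjusted p = 0.00380) and Tnfrsf1b, a tumour necrosis factor receptor, by 0.83 (adjusted p = 0.00612).

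Downstream of the receptors, 12 of 16 signalling genes were higher and 0 lower, with a median of 0.71. They included Gnb1, a G protein beta subunit (0.75, adjusted p = 1.89e-05), Dock2, a leukocyte activator of Rac (1.49, adjusted p = 0.000475), and the G protein regulators Rgs2 (1.23, adjusted p = 0.000584) and Rgs16 (2.08, adjusted p = 0.000671). Among all genes 14.9% were higher and 10.3% lower. Of 15 genes that cleave, present or modify chemokines 3 were higher and 0 lower, with a median of 0.03. These were Sdc4 and Sdc2, heparan sulphate proteoglycans of the cell surface (1.22, adjusted p = 3.62e-06, and 1.02, adjusted p = 0.000648), and Ext1, an enzyme that builds their heparan sulphate chains (1.16, adjusted p = 1.35e-05). Sdc3 had a value of 0.27 (adjusted p = 0.0899, called in 2 of 20 alternatives), and Adam10 and Adam17, the proteases that release Cx3cl1 from the membrane, had -0.06 (adjusted p = 0.702) and 0.14 (adjusted p = 0.335). Against DUX, the counts were 9 higher and 0 lower of 16 for the signalling genes, 4 and 0 of 15 for the processing genes, 8 and 0 of 19 for the NF-kB list, and 8 and 1 of 16 for the cytokine list. There, 16.5% of all genes were higher and 13.1% lower.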

How the data were processed

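The authors' deposited values are raw read counts per gene in 12 whole-muscle libraries, made from 200 ng of RNA with poly-A selection, per the labels' protocols. The submitters' processing notes name STAR, featureCounts, bcl2fastq 2.17.1.14 and the build GRCm38. The sources used here do not give further versions, the strand setting or the annotation. Genes with a mean count under 10 are not in the analysis.

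Testing used edgeR 4.0.16 (quasi-likelihood, glmQLFit and glmQLFTest, in R 4.3.3) with TMM scaling (factors 0.916 to 1.12), filterByExpr and 1 mean per group over all 12 libraries, at a Benjamini-Hochberg threshold of 0.05 within each comparison. Fold changes use a prior count of 0.125, standard errors are the fold change over the root of F, and profile distances use log2 CPM with a prior count of 2. Exonic lengths and positions came from GENCODE M21. The steps were tested on simulated data. DESeq2 1.42.0 and voom of limma 3.58.1 were alternatives, beside other scalings, no filter, a replicate block, only the groups compared, leaving out each library and leaving out both tendon-rich libraries, the last chosen after seeing the data. Genes were named by a rule: all members, other chemokines that were called, the measured receptors, up to 4 genes of each other list with the smallest p, and the 3 nearest profiles of called members. Uncalled other chemokines, Adam10 and Adam17 were named after their values were seen. Members and lists were chosen with earlier results of these data known. The values of 1 receptor gene are not reported here, though the receptor list's counts and median include it.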

Additional observations from a re-analysis of the deposited data

Results flagged for a closer look

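The difference of the vector effect between doxycycline and normal chow passed the test of the interaction for 4 chemokines. It was 5.20 for Ccl2, 4.23 for Ccl7, 1.34 for Ccl6 and 1.55 for Ccl9 on the log2 scale, with the adjusted p-values given above. The groups of 3 libraries were too small for a test of single outlying samples.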

How the results depend on the processing

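The rises of Ccl2, Ccl6, Ccl7 and Ccl9 in DUX_DOX against EV_DOX and against DUX kept their direction and their side of the threshold in all 20 alternatives, with log2 values against EV_DOX of 5.20 to 6.30 for Ccl2, 1.98 to 2.27 for Ccl6, 4.92 to 6.13 for Ccl7 and 1.73 to 2.167 for Ccl9. Without single libraries the count of members called was 4 to 5 against EV_DOX, 4 to 5 against DUX, 0 in EV_DOX against EV and in DUX against EV, and 3 to 4 for the interaction. With the replicate block the counts were 4, 5, 0, 0 and 4, and the calls of Cmklr1 (adjusted p = 0.0599) and Ciita (0.0541) against EV_DOX and of Dock2 against DUX (0.0540) were lost. Vectors without and with Dux went into opposite legs, so same-numbered EV and DUX, or EV_DOX and DUX_DOX, libraries may be the legs of 1 mouse, but the labels do not say so. Deviations of such same-numbered libraries correlated at -0.11 to 0.18, and those of different-numbered libraries of the same groups at -0.27 to 0.21. These values do not decide whether the legs were paired. The replicate block also joins libraries on different chow, which cannot be legs of 1 mouse. It was therefore not taken as the pairing, and a pairing by mouse was not tested otherwise. The count of all genes called in DUX_DOX against EV_DOX was 3224, and 2109 without DUX_DOX 3, for the interaction 1326, with 813 without EV 3 and 2148 without EV_DOX 1, and for EV_DOX against EV 5, with 0 to 12 over the alternatives. For DUX against EV it was 0, with 118 without EV 2, 1 without DUX 2 and 153 in DESeq2. The cause was not tested. Counts of the named lists without both tendon-rich libraries stayed within 1.5 times of those given. Ccl7 (6 counts in EV_DOX) and Ccl2 (15) limit the precision of their folds.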
